A study of Mus musculus with 4 samples.

Results

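The irradiated primary tumour was compared with the sham-treated primary tumour across 700 mouse microRNA probes, using 2 of the 4 arrays of the study. Both tumours grew from 4T1, a mouse mammary carcinoma line that metastasises from the mammary gland. The study injected 50000 of these cells orthotopically into each of 20 female mice, whose strain the labels spell Balb/s. Once a tumour measured 1 cm3 it received 10 Gy (10 mice) or sham radiation (10 mice), and it was then removed by mastectomy. The other 2 arrays held metastases of the same arms and enter no value below except where 4 arrays are named. The labels name no genetic change in any group, and both primary tumours shared the cell line, the host strain and the operation. The labels give neither the time between radiation and removal of the tumour nor whether the RNA on an array came from 1 mouse or from several.

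Each side was 1 array, so no difference has a replicate check and no test was made. The number of arrays limits the precision. What could be measured is the scatter of the 5 spots that carry each probe, the detection of a probe against the empty spots of its own chip, and the dependence of a difference on how the 2 chips are put on a common scale. A net level is the mean of the 5 spots minus the median empty spot of that array, in intensity units, and its error is the SD over the 5 spots. A difference is the log2 of the 10 Gy level over the sham level, centred so that the median of the 184 probes detected on both arrays is 0. Its error comes from the 5 spot pairs that hold matching chip positions (their SD), which leaves out all error between chips and between animals.

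MicroRNAs are short RNAs that guide Argonaute proteins to messenger RNAs, and bases 2 to 8 from their 5′ end, the seed, set most of the pairing. MicroRNAs with a shared seed form a family with overlapping targets. A hairpin precursor gives 2 arms, a guide that is kept and a passenger, marked here by a star, that is mostly degraded. Many microRNA genes stand in clusters that are cut from 1 long transcript, or within introns of a host gene, so that clustered members are often made together while their mature levels also depend on processing and decay. Ionising radiation activates p53 in many cells, and p53 raises the transcription of miR-34a. A tumour is a mixture, so in such bulk RNA a lower number of cells of a type and less RNA per cell cannot be told apart.

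The mature sequences below are from RefSeq (GRCm38.p6), 5′ to 3′, with the seed in capitals. Those of the miR-17 family are shown because 4 of its 6 members were at least 2-fold higher after 10 Gy, and they are close copies of each other outside the seed as well.
miR-17: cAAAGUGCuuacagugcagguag
miR-20a: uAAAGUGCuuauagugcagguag
miR-93: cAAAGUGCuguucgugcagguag
miR-106a: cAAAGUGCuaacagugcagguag
miR-106b: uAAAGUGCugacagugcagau
miR-20b: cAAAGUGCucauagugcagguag

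The arms of Mir214 and of Mir16-1 are shown because the arms of each hairpin differed strongly from each other. Mir214 gives miR-214 from chr1:162223438-162223459 and miR-214* from chr1:162223397-162223418, both on the plus strand, inside the host transcript Dnm3os. Mir16-1 gives miR-16 from chr14:61631936-61631957 and miR-16* from chr14:61631894-61631915, both on the minus strand, inside Dleu2. miR-16 is also made from a second gene on chromosome 3.
miR-214: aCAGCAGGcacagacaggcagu
miR-214*: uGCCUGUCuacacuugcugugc
miR-16: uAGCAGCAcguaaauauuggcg
miR-16*: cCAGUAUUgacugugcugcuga

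The next set holds probes whose target contains a run of at least 6 alternating U and G letters. After centring, the first 3 were at least 2-fold lower after 10 Gy and the last 2, which have the longest runs, were not. Without scaling these last 2 were past 2-fold lower as well, miR-574-5p at -1.72 and miR-1187 at -1.67.
miR-466j: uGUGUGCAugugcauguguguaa
miR-672: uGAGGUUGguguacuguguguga
miR-206: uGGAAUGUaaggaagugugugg
miR-574-5p: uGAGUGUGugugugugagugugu
miR-1187: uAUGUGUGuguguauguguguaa

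The last set holds microRNAs at the ends of the list. miR-223 is the microRNA of myeloid cells, miR-711 was near the bottom of the list, miR-290-5p and miR-292-5p share a seed and a cluster, and miR-764-5p, miR-343, miR-127 and miR-34a were among the 12 highest.
miR-223: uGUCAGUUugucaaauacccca
miR-711: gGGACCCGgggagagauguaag
miR-290-5p: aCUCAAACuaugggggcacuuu
miR-292-5p: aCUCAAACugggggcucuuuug
miR-764-5p: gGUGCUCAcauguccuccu
miR-343: uCUCCCUUcaugugcccaga
miR-127: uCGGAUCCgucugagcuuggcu
miR-34a: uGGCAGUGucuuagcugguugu

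The 2 chips differed before any microRNA was considered. The 180 empty spots had a median of 416.9 ± 33.3 units on the 10 Gy array and 171.5 ± 14.8 on the sham array (SD over spots), and their intensity ran against chip row in opposite directions, with correlations of -0.62 and 0.60 over those spots. Detection asked for 3 or more of the 5 spots above the 95th percentile of that chip's empty spots, which left 186 probes on the 10 Gy array and 337 on the sham array. Of these, 184 were detected on both arrays, 2 only after 10 Gy and 153 only after sham treatment, while 361 were detected on neither. The median unscaled difference of the 184 probes was -0.93 on the log2 scale, so the typical probe had 0.526 of its sham intensity on the 10 Gy array. The 5 probes for 5S ribosomal RNA differed by a median of only -0.18 without scaling, and the 8 spiked-in control probes above 1000 units on both arrays by -0.37 with a range of -2.86 to 0.52. Which of these stands for equal RNA cannot be settled with 1 chip a side, and every centred difference below becomes 0.93 lower without scaling.

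**Figure D1:**
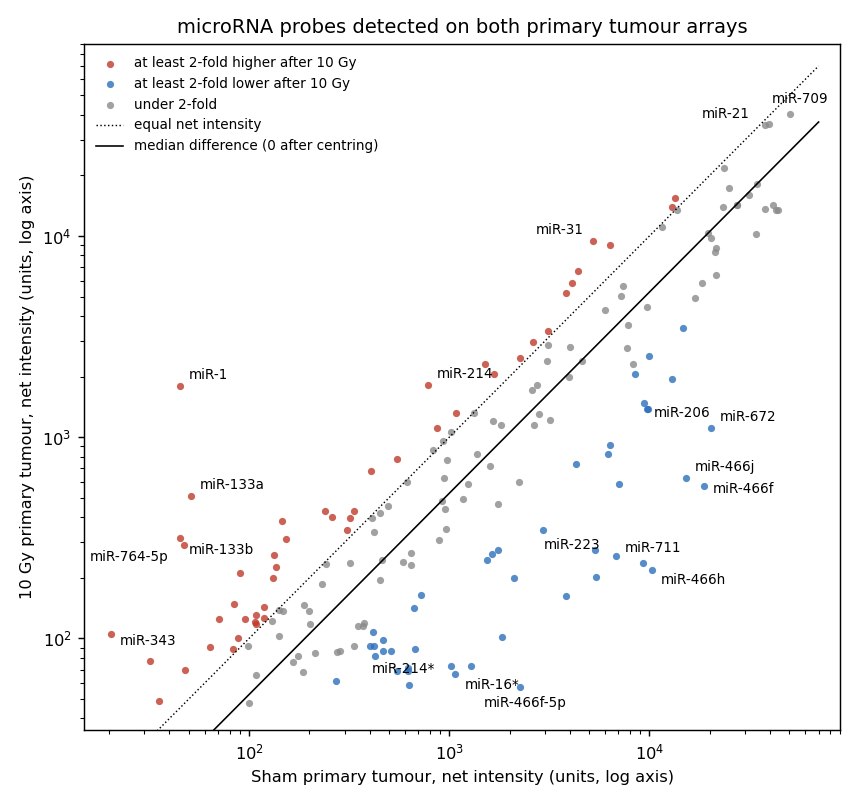
Net intensity of the 184 microRNA probes detected on both primary tumour arrays, 10 Gy on the vertical axis and sham on the horizontal axis, both logarithmic. The dotted line marks equal net intensity and the solid line the median difference (-0.93 on the log2 scale), and miR-1 lies farthest above that line and miR-466h farthest below.

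Across the 184 probes the log2 levels of the 2 arrays had a Pearson correlation of 0.81 and the levels a Spearman correlation of 0.78, over probes that share a chip, a labelling and a background. After centring, 47 probes (25.5%) were at least 2-fold higher after 10 Gy and 45 (24.5%) at least 2-fold lower. Without scaling the split was 10 higher (5.43%) and 86 lower (46.7%). It was 66 and 38 with scaling to the 75th percentile, 64 and 37 with quantile normalization of the 2 arrays, 42 and 66 in the authors' value table, 13 and 76 relative to 5S ribosomal RNA, and 17 and 68 relative to the spiked-in probes. The 5 spots on the 2 arrays did not overlap after centring for 69 probes on the higher side (37.5%) and 61 on the lower side (33.2%), among them 42 of the 47 and all 45 past 2-fold. The scatter of spot pairs was small beside these differences, with a median of 0.23 on the log2 scale over 181 probes, whereas the scale between the chips changed the counts several-fold.

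The higher and lower calls lay at different intensities. In the dimmest group of 37 probes, with mean levels of 41.8 to 166 units, 20 were at least 2-fold higher, 1 was lower and the median difference was 1.03. In the next group of 37, from 175 to 377 units, 9 were higher and 18 lower, with a median of -0.95. The brightest 37 probes, above 5017 units, had 5 higher and 3 lower and a median of -0.01. Of the 47 probes called higher, 23 lay under 2 times the empty median on both arrays. Of the 45 called lower, 31 lay under that mark on the 10 Gy array, and all 45 lay above it on the sham array. Detection asked for spots above 57.7 units on the 10 Gy array and above 20.7 units on the sham array. A dim probe with less signal after 10 Gy thus mostly fell among the 153 detected only after sham treatment. The dimmest group could therefore hold few lower calls, and its excess of higher calls is no separate result about dim microRNAs. The part of the background in these calls was not tested.

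The muscle microRNAs gave the highest values of the comparison. miR-1, the main microRNA of heart and skeletal muscle, had spots of 2402, 1442, 1224, 1758 and 2144 units on the 10 Gy array, against 36.6, 29.3, 41.3, 47.0 and 71.0 on the sham array. No spot of one array came near those of the other, and the centred difference was 6.24 ± 0.49, or 75.7-fold, against 39.8-fold without scaling. Its lowest value over the settings was 3.53, with no background subtraction, which also gave the lowest values of miR-133a (2.23) and miR-133b (1.93). miR-133a, which is transcribed together with miR-1, had 510 ± 65.3 units after 10 Gy and 51.2 ± 10.4 after sham treatment, a difference of 4.24 ± 0.40. Its close relative miR-133b had 316 ± 63.7 and 45.2 ± 11.6 units in the same order, a difference of 3.73 ± 0.66. The miR-133a and miR-133b targets differ at 1 position, so their probes need not give separate signals.

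miR-206, the microRNA of skeletal muscle and the brightest muscle member on the sham array, went the other way. Its level was 1478 ± 284 units on the 10 Gy array and 9444 ± 1176 on the sham array, with spots that did not overlap and a difference of -1.75 ± 0.17. miR-206 and miR-133b lie within 1 host transcript, the muscle long noncoding RNA Lincmd1 on chromosome 1, and were thus on opposite sides of 2-fold. The targets of miR-206 and miR-1 share a seed and differ at 4 of 22 positions. The other 3 members of the muscle list, miR-208a, miR-208b and miR-499, which are encoded within myosin genes, were detected on neither array. Of 7 muscle probes, 4 were detected on both arrays, 3 of them at least 2-fold higher and 1 lower. Over all 184 probes 25.5% were at least 2-fold higher and 24.5% lower. The median difference of the 4 was 3.99, against 0 over all 184 probes. The summed level of the list was 4085 units after 10 Gy and 9595 after sham treatment, most of it miR-206 in the sham tumour. Markers of muscle thus moved in both directions, and the part of muscle tissue in these values was not tested. With detection above 2 times the empty median, miR-206 was the only muscle member left and the median was -1.92.

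**Figure D2:**
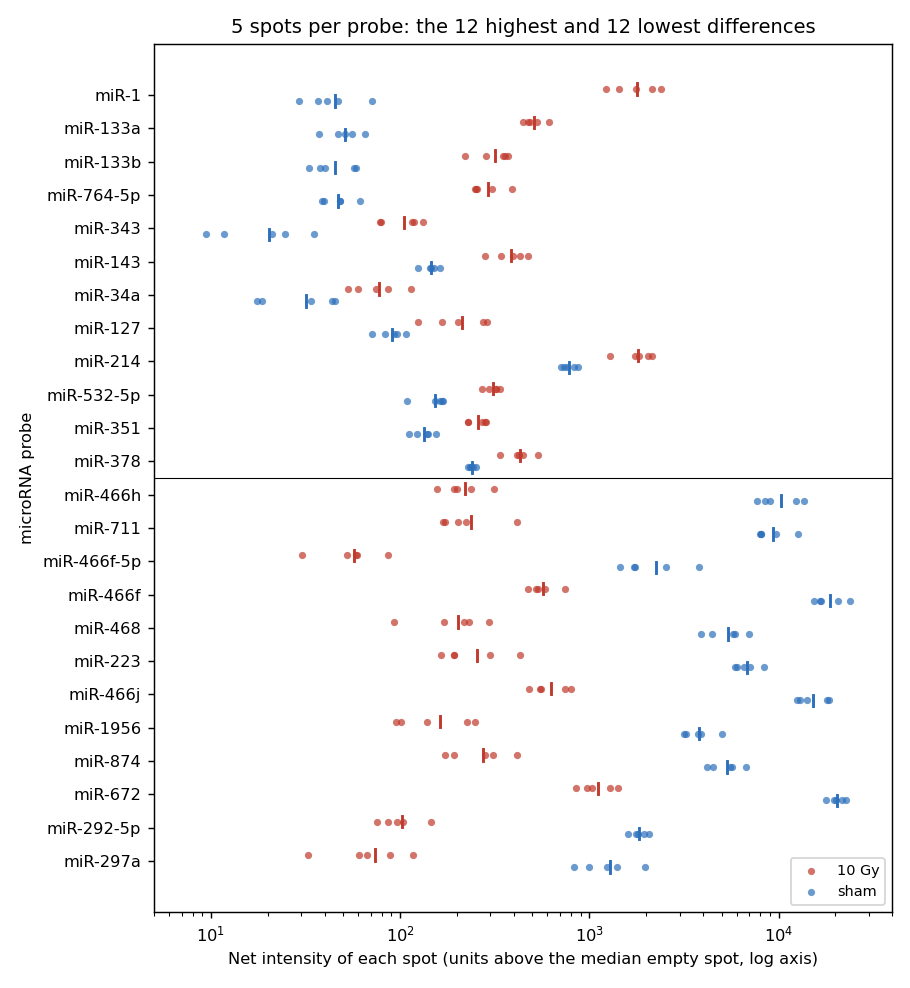
The 5 spots of the 12 probes with the highest and the 12 with the lowest centred difference, as net intensity on a logarithmic axis, with the 10 Gy array above the sham array in each row and a bar at the mean. The spots of the 2 arrays do not overlap for any of the 24 probes, and the sham spots of miR-1, miR-133a, miR-133b and miR-764-5p lie below 100 units.

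The 6 stromal microRNAs detected on both arrays had positive centred differences. Without scaling miR-214, miR-143 and miR-145 stayed above 0, but miR-21 (-0.09), miR-199a-3p (-0.10) and miR-29a (-0.38) were below it. miR-214, which is made from Dnm3os in mesenchymal cells, had spots of 2154, 1828, 1287, 1735 and 2048 units after 10 Gy, against 834, 758, 704, 734 and 872 after sham treatment. The lowest 10 Gy spot exceeded the highest sham spot without scaling, and the difference was 2.14 ± 0.19. miR-143, of smooth muscle and fibroblasts, averaged 383 ± 74.8 units on the 10 Gy array and 145 ± 13.8 on the sham array (difference 2.32 ± 0.39). miR-145, from the same cluster as miR-143, averaged 402 ± 77.9 and 261 ± 14.3 units in that order, with a difference of 1.55 ± 0.26 that was 0.62 without scaling. miR-199a-3p, which shares Dnm3os with miR-214, differed by 0.83 ± 0.34 and had nearly equal levels, 421 ± 45.8 after 10 Gy and 450 ± 83.2 after sham treatment. miR-29a, which represses collagens, differed by 0.55 ± 0.04. Of the 9 probes of this list, 6 were detected on both arrays and 3 of these were at least 2-fold higher. Of the 184 probes detected on both arrays 25.5% were at least 2-fold higher. The other 3 of the 9, miR-29b, miR-29c and miR-199a-5p, were detected only after sham treatment. Of these only miR-29c was lower after centring, by at least 1.11-fold. The list median was 1.19 (0.27 without scaling). The summed level of the list, most of it miR-21, was 44145 units after 10 Gy and 46899 after sham treatment.

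miR-21, the oncogenic microRNA made from a gene inside the span of Vmp1, ranked 3 among the probes of the 10 Gy array and 7 among those of the sham array. Intensities of different probes are not on a common scale, so ranks describe the array and not the amounts of the microRNAs. The spots of miR-21 ran from 32970 to 38251 units after 10 Gy and from 36253 to 39030 after sham treatment. The 2 sets of spots overlapped before centring, the unscaled difference was -0.09, and the centred one was 0.84 ± 0.04. Its sign thus rests on the scale between the chips. The brightest probe on both arrays was miR-709, with 40567 ± 1256 units after 10 Gy and 50098 ± 2051 after sham treatment. Of the 10 brightest probes of each array 6 were shared, among them miR-2142 (0.79), miR-2134 (0.00) and miR-705 (-0.61). On the 10 Gy array alone miR-125b-5p (0.80) and let-7c (0.40) were among the 10, and on the sham array alone the U- and G-rich miR-574-5p and miR-1187 and the GC-rich miR-762 (-0.55).

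Blood cell microRNAs were at or below the median. miR-223, which tunes the development of granulocytes, had spots of 430, 298, 193, 165 and 193 units on the 10 Gy array and of 8368, 6609, 5862, 6058 and 7064 on the sham array. The 2 sets were far apart, and the difference was -3.81 ± 0.42, or 14.0-fold lower, with a range of -4.73 to -2.91 over the settings tried. miR-142-3p and miR-142-5p, which mark all blood cell lineages, were detected on neither array, so the myeloid list rests on miR-223 alone. miR-155, induced in activated lymphocytes and macrophages, averaged 310 ± 116 units after 10 Gy and 887 ± 101 after sham treatment, and its spots overlapped after centring (-0.59 ± 0.52). miR-150, of mature lymphocytes, had 43.8 ± 38.7 units after 10 Gy and 79.4 ± 10.8 after sham treatment and was detected only in the second. The erythroid miR-451 had 601 ± 60.2 units after 10 Gy and 2239 ± 180 after sham treatment, a difference of -0.97 ± 0.11 that is just short of 2-fold, while miR-486 differed by 0.00 ± 0.22 and miR-144 was not detected.

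Epithelial microRNAs, set against the label of a mammary carcinoma, were few. Of 10 probes, miR-182 and miR-183 alone were detected on both arrays, with differences of 0.26 ± 0.19 and -0.23 ± 0.13. miR-200a, miR-200b, miR-141, miR-205 and miR-96 were detected on neither array. miR-203 was detected only after sham treatment, at 55.5 ± 11.4 units against 9.12 ± 23.4 after 10 Gy. miR-200c, which maintains the epithelial state with the rest of its family, was not detected on the 10 Gy array, with a mean of 5.19 ± 29.8 units, and had 54.3 ± 14.2 units on the sham array. Its relative miR-429 was 1 of the 2 probes detected only after 10 Gy, at 51.9 ± 32.3 units against 1.57 ± 12.8 after sham treatment, a difference of at least 4.77-fold after centring that is close to the empty spots on both sides. The endothelial miR-126-3p, from an intron of Egfl7, differed by 0.43 ± 0.11. Markers of other tissues were measured too. Of 3 hepatocyte probes miR-122 was detected on neither array and miR-192 and miR-194 only after sham treatment. Of 4 neural probes miR-124 and miR-138 were detected on neither array and miR-9 only after sham treatment, while miR-128 had 118 ± 27.9 units after 10 Gy and 202 ± 19.8 after sham treatment (0.15 ± 0.32). The probe for miR-375 of pancreatic islets had 4.89 units after 10 Gy and 0.938 after sham treatment.

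Of the microRNAs tied to p53, 3 of 9 probes were detected on both arrays. Of these 3, 2 were at least 2-fold higher, beside 25.5% of the 184 probes detected on both arrays. miR-192 and miR-194 were detected only after sham treatment. The activity of p53 was not measured in either tumour, and its part in these values was not tested. miR-34a had 77.6 ± 24.3 units on the 10 Gy array and 31.8 ± 13.3 on the sham array, both under 2 times the empty median, with a difference of 2.21 ± 0.97. The spots did not overlap after centring, but under the 11 settings that listed it the value went as low as 0.60. miR-34b-5p, miR-34b-3p and miR-34c, its relatives from another locus, were detected on neither array, and miR-145 was described with the stroma. miR-107, whose host is Pank1, had 861 ± 161 units after 10 Gy and 831 ± 89.5 after sham treatment, a difference of 0.98 ± 0.34. Its near copy miR-103, which differs from it at 1 position, reached 1.21 ± 0.13. The NF-kB list had 5 of 6 probes detected on both arrays and none (0) past 2-fold, with miR-146a at -0.72 ± 0.31 and miR-146b at -0.16 ± 0.15. The hypoxia-induced miR-210 differed by 0.49 ± 0.23 and its spots overlapped.

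Among families that share a seed, the miR-17 family had the most members past 2-fold. miR-17 averaged 2312 ± 262 units on the 10 Gy array and 1503 ± 49.8 on the sham array, a difference of 1.55 ± 0.19. miR-20a averaged 2485 ± 207 and 2266 ± 174 units in that order (1.06 ± 0.08), miR-93 1110 ± 115 and 872 ± 74.3 (1.27 ± 0.12), and miR-106a 395 ± 93.0 and 317 ± 9.21 (1.24 ± 0.36). These promote the cell cycle and come from 3 loci on chromosomes 14, 5 and X. miR-106b differed by 0.89 ± 0.34, and miR-20b, whose gene neighbours that of miR-106a, by -0.27 ± 0.34. All 6 members were detected on both arrays, and 4 were at least 2-fold higher, beside 25.5% of the 184 probes detected on both arrays. The family median was 1.15, against 0.22 without scaling. miR-17 and miR-106a differ at 1 position, so these values are not 6 separate measurements.

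The let-7 family, which opposes proliferation and marks differentiated cells, lay at the median. Its bright members let-7a, let-7b, let-7c and let-7d had centred differences of -0.01 ± 0.20, 0.17 ± 0.17, 0.40 ± 0.17 and -0.12 ± 0.17. The lowest was let-7f at -0.44 ± 0.18 and the highest let-7i, with 11106 ± 1150 units after 10 Gy and 11596 ± 672 after sham treatment, at 0.86 ± 0.11. Of 10 probes with this seed 8 were detected on both arrays and none (0) was past 2-fold. miR-98 shares the seed, differs from let-7a at 2 positions, and had -5.87 ± 34.3 units after 10 Gy and 401 ± 69.6 after sham treatment. It was detected only after sham treatment, which makes it at least 3.66-fold lower.

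In the other families the median stayed within 1 of 0. The miR-30 family (4 detected on both arrays, median -0.33), the miR-25 and miR-92 family (3, -0.02) and the miR-181 family (3, 0.80) had no member past 2-fold. The miR-15 and miR-16 family (4, -0.46) had only miR-15a past it, and the miR-148 family had 1 member on both arrays, miR-152 at 0.81 ± 1.38, whose spots overlapped. The miR-99 family split: miR-99b had 3387 ± 274 units after 10 Gy and 3115 ± 95.9 after sham treatment (1.05 ± 0.09), whereas miR-99a had 91.2 ± 44.4 and 403 ± 53.2 (-1.22 ± 0.71), and miR-100 differed by -0.32 ± 0.18. The miR-125 family had miR-351 at 1.88 ± 0.27, miR-125b-5p at 0.80 ± 0.06 and miR-125a-5p at -0.06 ± 0.21. In the miR-130 family miR-721 differed by -1.64 ± 0.59, while miR-130a (0.00 ± 0.20) and miR-130b (0.61 ± 0.20) did not reach 2-fold. The miR-26 pair, whose targets differ at 3 positions, was farther apart: miR-26a had 13447 ± 841 units after 10 Gy and 13785 ± 858 after sham treatment (0.89 ± 0.05), and miR-26b had 910 ± 268 and 6324 ± 1043 (-1.87 ± 0.20). miR-26b lay at least 2-fold lower under all 13 settings that listed it.

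Clusters were compared next, a cluster being microRNA genes within 10 kb of each other. Pairs of probes from 1 cluster lay a median of 1.10 apart over 97 pairs, against 1.45 over all 16836 pairs of probes, which share probes and are given as a description. The Mir17 cluster on chromosome 14, known as miR-17-92, had miR-18a at 1.52 ± 0.28 beside miR-17 and miR-20a, but miR-92a at 0.33 ± 0.10 and miR-19b at -0.54 ± 0.21. miR-19b also has a gene on chromosome X. The Mir25 cluster, within the replication gene Mcm7, had miR-93 and miR-106b above and miR-25 at -0.02 ± 0.09. Both clusters held members with the miR-17 seed on the higher side and members with the miR-92 seed near the median.

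The 2 clusters of miR-23, miR-24 and miR-27 share the miR-24 probe and have near copies of miR-23, so they are not 2 separate observations. miR-24, made by both, had 6710 ± 209 units after 10 Gy and 4380 ± 74.4 after sham treatment (1.54 ± 0.06). miR-23a (1.03 ± 0.05) and miR-23b (1.12 ± 0.07), whose targets differ at 1 position, were just past 2-fold and only 0.10 and 0.19 without scaling. miR-27a (-0.18 ± 0.15) and miR-27b (0.42 ± 0.10), which restrain adipogenesis, lay closer to the median. The Mir500 cluster within Clcn5 on the X chromosome had miR-532-5p, with 310 ± 25.8 units after 10 Gy and 152 ± 25 after sham treatment, at 1.95 ± 0.27. The cluster also held miR-501-3p at 1.74 ± 0.93 and miR-188-5p at -0.76 ± 0.50, and its median stayed positive under every setting that listed it (0.81 to 2.13).

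The imprinted Dlk1-Dio3 region on chromosome 12 carries many microRNA genes that are read from the maternal chromosome. Of the 52 probes of its Mir379 cluster 5 were detected on both arrays, and of the 21 probes of its Mir770 cluster only miR-127 was. miR-127, which is antisense to Rtl1, had 211 ± 70.4 units after 10 Gy and 90.3 ± 13.7 after sham treatment, a difference of 2.15 ± 0.59. miR-379 reached 1.74 ± 0.32 and miR-409-3p 1.44 ± 0.59, miR-329 was at 0.58 ± 0.15, miR-134 at 0.48 ± 1.04 and miR-485* at -1.03 ± 0.35. miR-329 was the brightest of these, with 766 ± 144 units after 10 Gy and 974 ± 85.1 after sham treatment. A further 8 of the 52 Mir379 probes were detected only after sham treatment, beside 21.9% of all probes on the chip. So were 6 of the 21 Mir770 probes and all 3 probes of the Mir341 cluster, within Rian in the same region. Of these, only miR-493 (Mir770) and miR-341 were lower after centring, by at least 1.30-fold and 1.61-fold. miR-668, counted among the 8 Mir379 probes, had 4 spots of 26.0 to 92.8 units and 1 of 798.5 on the 10 Gy array.

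**Figure D3:**
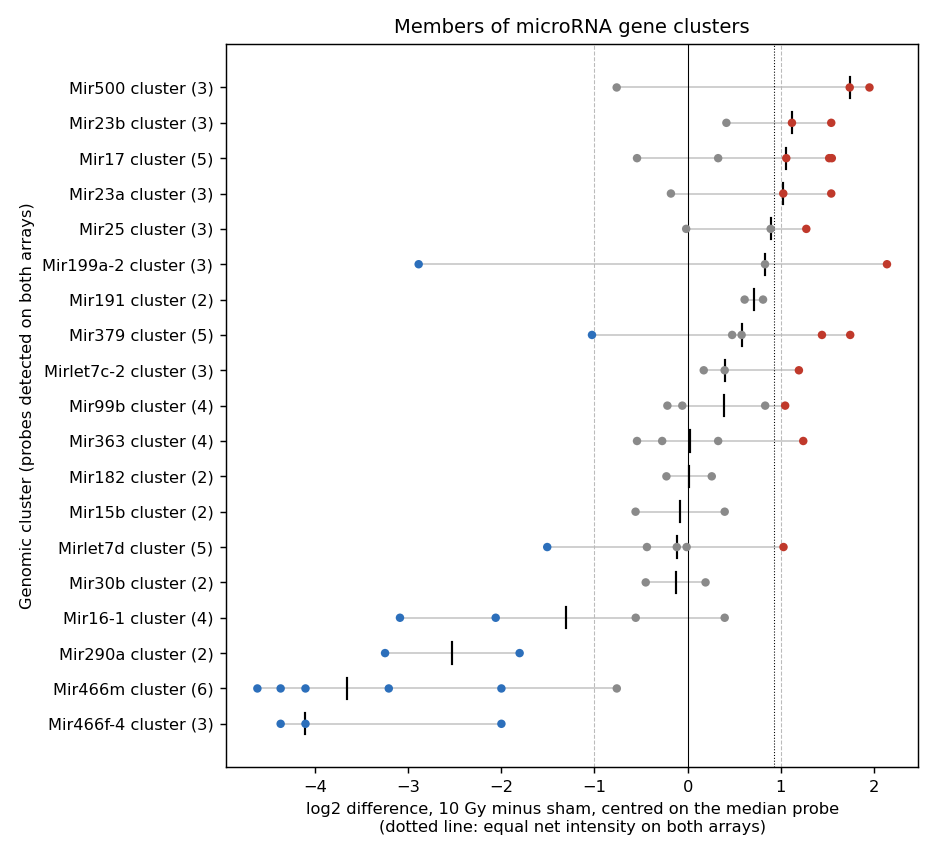
Centred log2 difference (10 Gy minus sham) of each probe detected on both arrays, for the 19 clusters with at least 2 such probes, ordered by the cluster median (black bar). Red and blue points are at least 2-fold higher and lower, the dotted line marks equal net intensity, and the members of Mir199a-2 range from -2.89 to 2.14.

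At the other end stood the clusters Mir466f-4, Mir466m, Mir290a and Mir16-1. The Mir466f-4 cluster on chromosome 13 had the lowest median (-4.10), from 3 miR-466f probes, all at least 2-fold lower, that also match the Mir466m cluster. The Mir466m cluster on chromosome 2 lies within the span of Sfmbt2, a Polycomb gene with many microRNA copies that are active in the placenta. Of its 39 probes 6 were detected on both arrays, with a median of -3.66. Of these 6, 5 were at least 2-fold lower, beside 24.5% of the 184 probes detected on both arrays. The 9 detected only after sham treatment are a share of the cluster's probes close to that over the chip, 153 of 700 (21.9%). miR-466f had spots of 741, 521, 475, 536 and 581 units on the 10 Gy array and of 23747, 16553, 15413, 16807 and 20614 on the sham array. The groups lay far apart, with a difference of -4.10 ± 0.07. miR-466h had 220 ± 59.3 units after 10 Gy and 10253 ± 2632 after sham treatment (-4.62 ± 0.12), and miR-466f-5p 57.3 ± 20.0 and 2250 ± 949 (-4.37 ± 0.46). miR-297a differed by -3.21 ± 0.60 and miR-466f-3p by -2.0 ± 0.33, while miR-466g stayed at -0.76 ± 0.44. Among probes detected only after sham treatment, miR-669e was at least 16.4-fold lower and miR-669d at least 4.26-fold lower. miR-467a and miR-669a of the same locus were detected on neither array. The targets of miR-466h and miR-466j, the second of which lies on chromosome 10, differ at 2 positions.

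The Mir290a cluster on chromosome 7 is known from embryonic stem cells and early embryos. miR-290-5p had 1954 ± 239 units after 10 Gy and 12957 ± 560 after sham treatment, a difference of -1.80 ± 0.12. miR-292-5p, with the same seed, had 102 ± 27.0 and 1836 ± 181 units (-3.25 ± 0.29). None (0) of the 14 probes was detected only after 10 Gy, and 5 were detected only after sham treatment. Over the chip, 2 of 700 probes were detected only after 10 Gy and 153 (21.9%) only after sham treatment. The Mir16-1 cluster within Dleu2 had a median of -1.31. miR-15a had 68.8 ± 36.7 units after 10 Gy and 545 ± 79.7 after sham treatment (-2.06 ± 0.96), but miR-16, which shares its seed and restrains the cell cycle, had 5006 ± 418 and 7219 ± 323 (0.40 ± 0.12).

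The 2 arms of a hairpin often lay apart. miR-214* had 72.7 ± 47.8 units on the 10 Gy array and 1022 ± 120 on the sham array, a difference of -2.89, against 2.14 for miR-214. miR-16* had 66.4 ± 34.0 and 1072 ± 174 units in that order (-3.09 ± 0.76), against 0.40 for miR-16. The arms of Mir31 were 1.96 apart: miR-31, which acts in metastasis of breast cancer, had 9443 ± 323 units after 10 Gy and 5238 ± 122 after sham treatment (1.78 ± 0.05), and miR-31* was at -0.19 ± 0.53. Over the 11 hairpins with both arms detected the median gap was 1.39, close to the 1.45 of all pairs of probes.

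Host genes were recorded for the probes whose microRNA gene lies on the same strand within a longer gene. Of the 88 such probes detected on both arrays 20 were at least 2-fold higher and 21 lower, with a median of 0.19. These shares are close to the 25.5% higher and 24.5% lower of all 184 probes. Probes of microRNA genes with no host had 23 higher and 15 lower of 72 (median 0.10), and the 24 with no matched gene had 4 higher and 9 lower (median -0.83). miR-378, for which no host was recorded, had 432 ± 72.6 units after 10 Gy and 239 ± 9.09 after sham treatment (1.78 ± 0.23). miR-764-5p, inside the serotonin receptor gene Htr2c, had 291 ± 59.8 units after 10 Gy and 47.2 ± 9.12 after sham treatment (3.55 ± 0.42). miR-343, inside the DNA repair gene Ercc2, had 105 ± 24.7 and 20.3 ± 10.4 units (3.29 ± 0.87), which is close to the empty spots on the sham side. On the lower side stood miR-711 inside the collagen gene Col7a1, miR-1956 inside the translation factor gene Eif4e, miR-874 inside Klhl3, miR-672 inside Nexmif, miR-1306 inside Dgcr8, a gene of microRNA processing itself, and miR-483 inside Igf2.

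miR-711 had 236 ± 101 units on the 10 Gy array and 9312 ± 2027 on the sham array, a difference of -4.38 ± 0.26. miR-1956 had 162 ± 71.1 and 3818 ± 735 units (-3.63 ± 0.72), miR-874 274 ± 97.1 and 5333 ± 1025 (-3.36 ± 0.24) and miR-672 1111 ± 233 and 20328 ± 1931 (-3.27 ± 0.18). None of these overlapped between the arrays. Outside the naming rule and chosen after their values were seen, miR-132 and miR-212, made from 1 cluster that CREB induces, were both higher, at 1.36 ± 0.13 and 1.65 ± 0.16. miR-132 had 5188 ± 283 units after 10 Gy and 3850 ± 355 after sham treatment.

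Many probes at the lower end of the list shared a sequence feature. Of all 700 probes 33 (4.71%) have a target with a run of at least 6 alternating U and G letters, in either order, a length chosen after the values were seen. Of these 33, 11 were detected on the 10 Gy array and 22 on the sham array. Among the 11 detected on both, 8 were at least 2-fold lower and none (0) higher, with a median of -3.27, and the 8 were miR-466h, miR-466f-5p, miR-466f, miR-468, miR-466j, miR-672, miR-297a and miR-206. The 173 probes without such a run had 37 lower and 47 higher and a median of 0.19. With runs of at least 4 letters the split was 15 lower and 6 higher of 37, with a median of -0.79. The other 3 were let-7b (0.17), miR-1187 (-0.74 ± 0.16) and miR-574-5p (-0.79 ± 0.07). miR-574-5p, whose run of 13 letters was the longest on the chip, had 13394 ± 1905 units after 10 Gy and 44052 ± 4166 after sham treatment. GC content had a Pearson correlation of -0.07 with the difference across the 184 probes.

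Some control probes were also far lower on the 10 Gy array. PUC2PM and PUC2MM, a pair of spiked-in control probes whose letters the files do not explain, had 4806 ± 441 and 1195 ± 238 units on the 10 Gy array (SD over 16 spots each), against 13152 ± 662 and 8705 ± 753 on the sham array. The second was thus 24.9% of the first after 10 Gy and 66.2% after sham treatment. Ctr05-3M10 had 65.0 ± 39.4 units after 10 Gy and 1151 ± 117 after sham treatment over 4 spots. Such controls are added from outside and are no part of a tumour, and the part of hybridisation in the low microRNA probes was not tested.

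**Figure D4:**
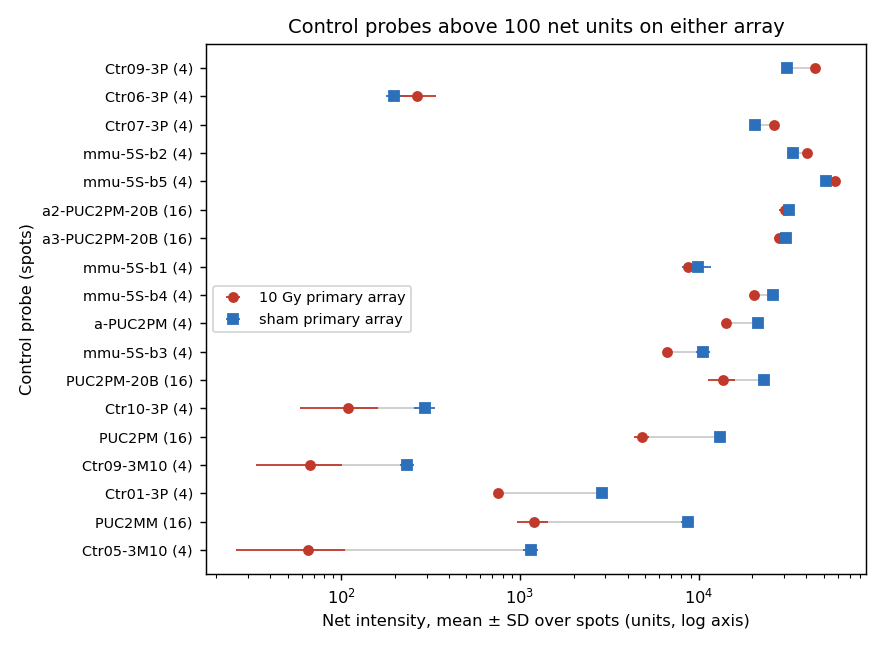
Net intensity (mean ± SD over spots, logarithmic axis) of the 18 control probes above 100 units on either array, with the 10 Gy array as circles and the sham array as squares. The 5S probes differ by -0.68 to 0.27 on the log2 scale, whereas PUC2MM has 1195 units after 10 Gy and 8705 after sham treatment.

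Of the 47 probes called higher, 46 kept their sign and 9 stayed at least 2-fold higher under every setting that listed them. The 9 were miR-1, miR-133a, miR-133b, miR-764-5p, miR-343, miR-143, miR-127, miR-214 and miR-532-5p. Only miR-214 among them was listed by all 13 settings. The others were listed by 11 or 12, because stricter detection dropped them, so those settings could not check them. Of the 45 called lower, 43 kept their sign and 26 stayed at least 2-fold lower, among them miR-466f, miR-466h, miR-466j, miR-711, miR-223, miR-672, miR-874, miR-290-5p, miR-292-5p, miR-26b, miR-16* and miR-214*. Of those named, miR-466f, miR-466j, miR-672, miR-290-5p and miR-26b were listed by all 13 settings. miR-16* and miR-214* were listed by 11 and the rest by 12. At the threshold itself, miR-712* (1.02), miR-23a (1.03) and let-7f* (1.03) lay just inside 2-fold on the higher side and miR-107 (0.98), miR-346 (0.98) and miR-674 (0.99) just outside. On the lower side miR-485* (-1.03), miR-1898 (-1.04) and miR-2146 (-1.12) lay inside, and miR-2143 (-0.98), miR-451 (-0.97) and miR-139-5p (-0.95) outside.

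**Figure D5:**
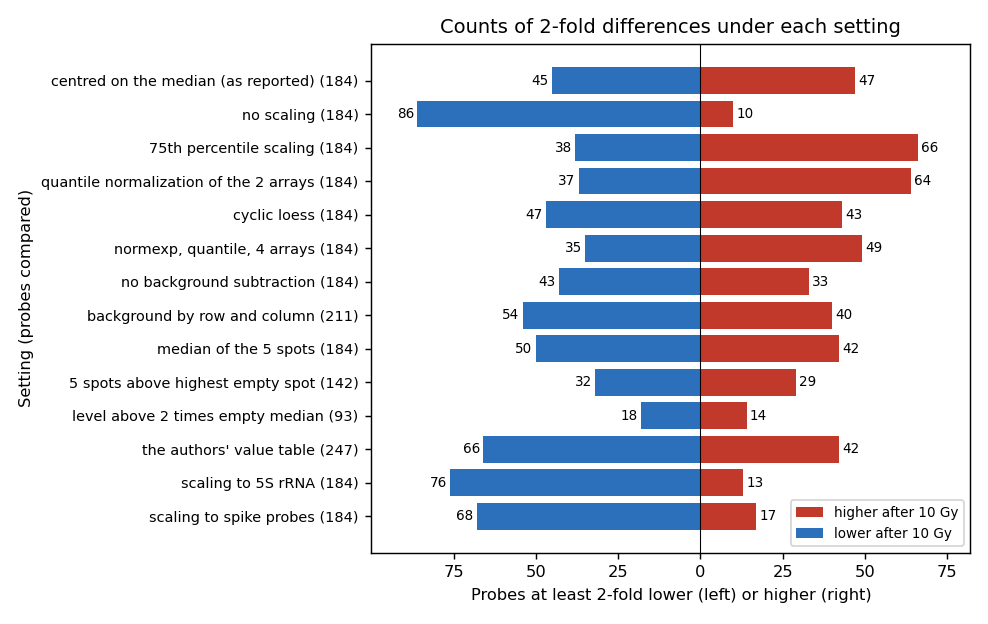
Number of probes at least 2-fold lower (left) and higher (right) after 10 Gy under the centred setting and 13 alternatives, with the number of probes compared in brackets. Counts run from 10 to 66 on the higher side and from 18 to 86 on the lower side.

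Probes detected on 1 array have only a bound, computed against the higher of the dim probe's level and a floor of 57.7 units on the 10 Gy array or 20.7 on the sham array. On the higher side miR-1191, whose gene lies in BC024978, had 123 ± 30.4 units after 10 Gy and 4.90 ± 9.80 after sham treatment, at least 11.3-fold higher. On the lower side 33 of the 153 probes had a bound below 0 and 16 of them reached 2-fold, against 68 and 32 without scaling. Beside miR-669e these were led by miR-877*, at least 8.37-fold lower, miR-1982* at least 6.89-fold and miR-760 at least 4.00-fold. For the remaining 120 probes of the sham array the bound was not below 0 after centring.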

How the data were processed

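MicroRNAs were measured on 1-colour microfluidic chips, 1 per group, by a service provider that tailed, tagged and stained total RNA with Cy3, per the labels' protocols. Per the file headers, the deposited scanner tables give the linear mean intensity of each spot, with no background subtracted. Commas within large numbers were removed. A second deposited table, with 1 intensity per probe after the authors' own background subtraction, served as an alternative. Neither its making nor the scanner software is given in the sources used here.

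For each array the median empty spot was subtracted, each probe's 5 spots were averaged, and log2 (10 Gy over sham) was centred on the median of probes detected on both arrays. A probe was called at 2-fold. Python 3.11.15, numpy 2.4.6 and pandas 2.3.3 were used, with limma 3.58.1 in R 4.3.3 for the quantile, cyclic loess and normexp (offset 50) alternatives. The counting of calls was checked on simulated data. The simulated chips had equal backgrounds and only bright probes were changed, so dim probes and unequal backgrounds were not covered. No test was made.

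RefSeq genes (GRCm38.p6) were matched to 655 of 700 probes, 538 by the same sequence, 6 by a sequence within the other and 111 by symbol, and 57 matched more than 1 gene. Names are those of the array. The text names the 12 highest and 12 lowest differences, the 6 brightest probes, the 5 largest bounds each way, the 3 probes on each side of the threshold, and the brightest members, up to 8, of each seed family, cluster, host gene or list described. The comparison, the 12 lists and the rules were chosen with earlier results of these arrays known.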

Additional observations from a re-analysis of the deposited data

How the results depend on the processing

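No paired analysis was possible because each group is 1 array. Alternatives changed the scale, the background, the summary of spots, the detection rule or the source of values. The scale relative to 5S ribosomal RNA and that relative to spiked-in probes were chosen after seeing the data. The 47 higher and 45 lower calls became 10 and 86 with no scaling, 13 and 76 relative to 5S ribosomal RNA, and 17 and 68 relative to the spiked-in probes. With detection above 2 times the empty median, which left 93 probes, they were 14 and 18, and with all 5 spots above the highest empty spot 29 were higher and 32 lower. The other settings gave 33 to 66 higher and 35 to 66 lower. Detected probes numbered 95 on the 10 Gy array and 172 on the sham array with the mark at 2 times the empty median. The unscaled median of -0.93 became -0.17 with no background subtraction and -0.43 in the authors' value table.

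Of 1455 values of named probes under the alternatives 1 reversed a call, that of miR-485*, which was 0.0105 with no background subtraction. Of 587 values of families, clusters and lists 2 did so, both with detection above 2 times the empty median, where 1 probe was left in each: the Mir16-1 cluster at 0.22 and the muscle list at -1.92. The signal over background limits the dim probes, since 23 of the 47 higher calls lay under 2 times the empty median on both arrays. Differences between chips and between mice were not measured.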
